A study of Mus musculus with 4 samples.

Results

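Regions in the second or a later intron of a gene made up 26.3% of the regions at which the authors listed a change of the histone mark H3K9me3 in microglia of Arid1a knockout (KO) embryos. They were chosen by the annotation that the authors' deposited lists give with each region, as the rows annotated as intron N of M with N of at least 2. The choice used neither the direction nor the score of a region. It found 1428 of 5432 listed regions (interval 25.1% to 27.5%) and 73.4% of the 1945 intron regions. The other 517 intron regions lay in first introns and serve as the comparison. Bracketed ranges are exact 95% intervals that cover counting error only, and regions of one pair of libraries are not replicates of a genotype.

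Microglia are the macrophages that reside in the brain. They were sorted from C57BL/6 mouse embryos, from the telencephalon, at a stage labelled E14 and described in the protocol as E14.5. KO embryos are labelled Arid1a cKO-Cx3cr1, a conditional loss of Arid1a in cells that express the microglial gene Cx3cr1, and control embryos Arid1a fl/fl, with the floxed gene. The Arid1a protein helps the SWI/SNF complex, which remodels nucleosomes, to bind DNA. Each genotype had 1 H3K9me3 and 1 IgG library, made by CUT&Tag, a method that tethers a transposase to marked chromatin through an antibody. The labels give neither the number of embryos pooled nor whether controls carried Cre. The lists name the regions that were higher or lower in KO than in control. They hold no read count, fold change or value per library. The depth is therefore unknown, no difference has a replicate check, no test between genotypes was made, and neither the loss of Arid1a nor the cell type could be checked.

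Trimethylation of lysine 9 on histone H3 is laid down by methyltransferases such as SETDB1 and SUV39H1 and is bound by HP1 proteins. It marks silent chromatin, much of it over transposable elements and other repeats, which are common in introns. First introns adjoin the promoter and often hold regulatory sequence, whereas later introns reach through the body of the gene, and those of genes for neuronal adhesion and signalling are among the longest in mammals.

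Sequence could be shown for the 2 regions that overlapped the start of a transcript in the RefSeq table of the GRCm38.p6 mouse assembly, which covers 250 bases before to 50 bases after each start. Both lie in the last intron of their host, and 2 of 1428 regions cannot stand for later-intron DNA in general. No region overlapped a RefSeq miRNA hairpin. Both overlaps are given 5′ to 3′ on the minus strand, the strand of both transcripts, with each CG, the dinucleotide that carries DNA methylation, in capitals. The first is part of a region higher in KO, in intron 2 of 2 of the predicted gene Gm12649, and holds 289 bases of the start window of Gm31828 (chr4:93481357-93481645). The next lies in a region lower in KO, in intron 11 of 11 of Slc7a11, which encodes a cystine transporter, and is the whole window of Gm40042 (chr3:50026194-50026493).
Gm31828 in Gm12649: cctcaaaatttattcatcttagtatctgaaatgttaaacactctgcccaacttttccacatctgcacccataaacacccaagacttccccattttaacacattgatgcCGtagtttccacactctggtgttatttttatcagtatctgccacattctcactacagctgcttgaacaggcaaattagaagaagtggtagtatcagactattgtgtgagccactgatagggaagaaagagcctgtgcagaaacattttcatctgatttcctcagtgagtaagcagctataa
Gm40042 in Slc7a11: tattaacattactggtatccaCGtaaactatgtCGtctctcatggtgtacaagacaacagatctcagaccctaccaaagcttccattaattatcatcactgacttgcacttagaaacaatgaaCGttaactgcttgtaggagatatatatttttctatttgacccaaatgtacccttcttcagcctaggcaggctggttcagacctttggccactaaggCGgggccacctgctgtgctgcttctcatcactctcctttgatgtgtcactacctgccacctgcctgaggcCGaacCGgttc
The Gm31828 stretch held 1 CG at 39.8% G and C, and the Gm40042 stretch 6 CG at 45.7%. Over all 32851 windows the medians were 7 CG and 52.7%, and 14.1% of windows held fewer than 2 CG. The authors' scores of the 2 regions were 1.95 and 3.21, and the nearest starts in their annotation lay 63.4 kb and 3.15 kb away, so neither Gm31828 nor Gm40042 was among them.

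Later-intron regions were split between the directions as the lists were as a whole. Of the 1428 regions, 918 (64.3%, 61.7 to 66.8) were higher and 510 lower in KO. The background over all 5432 listed regions was 64.2% higher and 35.8% lower. First introns had 319 higher and 198 lower regions, 61.7% higher (57.4 to 65.9), and this interval overlapped that of later introns. Later introns took 26.3% of the higher and 26.2% of the lower list. On the X chromosome 25 regions were higher and 7 lower (78.1%, 60.0 to 90.7), and no later-intron region lay on Y.

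Intron number did not separate the lists. Intron 2 held 255 higher and 138 lower regions, which are 27.8% and 27.1% of the later-intron regions of each list. Intron 3 held 154 and 83, introns 4 to 5 held 167 and 96, introns 6 to 10 held 158 and 99, and introns beyond 10 held 184 and 94. The share higher was 64.9% in intron 2, 65.0% in intron 3, 63.5% in introns 4 to 5, 61.5% in introns 6 to 10 and 66.2% beyond intron 10, with overlapping intervals.

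**Figure D1:**
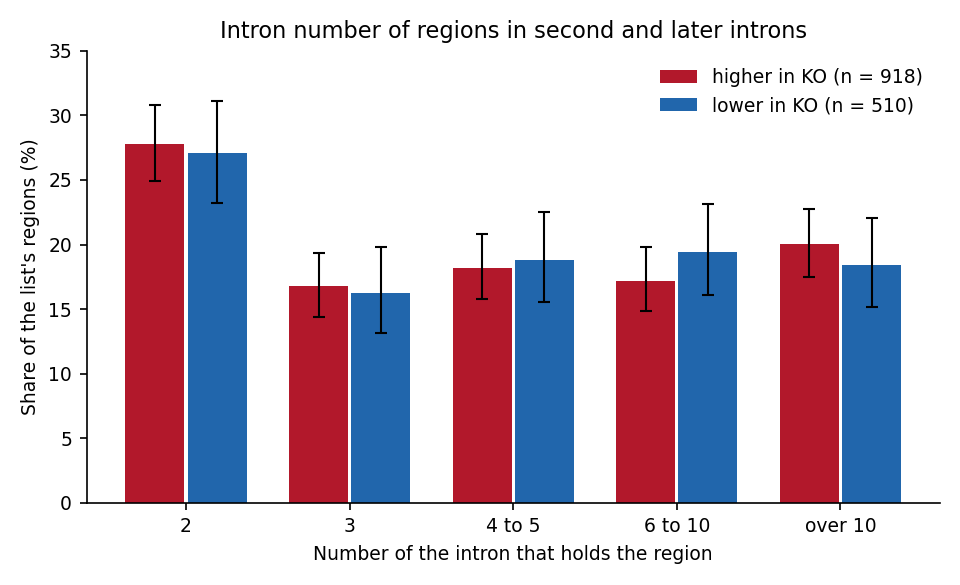
Share of the later-intron regions of each list (percent, y axis) by the number of the intron that holds the region (x axis), for regions higher in KO (red, 918 regions) and lower in KO (blue, 510 regions). Error bars are exact 95% binomial intervals. Intron 2 held the most regions of both lists, 27.8% of the higher and 27.1% of the lower, and the error bars of the lists overlap in each class.

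The highest intron numbers fell in transcripts with 44 to 145 introns. In the higher list these were intron 127 of 145 in Syne1, which encodes the nuclear envelope spectrin nesprin-1 (score 3.69), intron 76 of 78 in the axonemal dynein gene Dnah5 (2.27), and intron 74 of 88 in Dync2h1, the motor of retrograde transport in cilia (2.04). In the lower list they were intron 62 of 85 in Prkdc, the DNA-dependent protein kinase (2.08), intron 55 of 145 in Syne1 (2.08), and the last of 44 introns in the type IV collagen gene Col4a6 (2.47). Syne1 thus had a region in each list, chr10:5080681-5081035 higher and chr10:5275967-5276317 lower.

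Set relative to the number of introns, the regions were spread over the introns after the first. The median relative number N/M was 0.50 in the higher list (quartiles 0.27 and 0.80) and 0.50 in the lower list (0.25 and 0.80). The median transcript had 12 introns in both lists. With the intron numbers of each transcript cut into 3 equal stretches, the earliest held 318 higher and 189 lower regions (62.7% higher), the middle 294 and 152 (65.9%), and the final one 306 and 169 (64.4%). Because N was at least 2, transcripts with few introns could not enter the earliest stretch. The number of regions in each stretch was thus partly set by the choice of regions. Measured in bases along the host gene in RefSeq, the median later-intron region lay 59.0% of the way from start to end, against 21.7% for first introns, over 1193 and 400 regions with a usable strand and span. From the host's start, higher regions lay at a median of 90.0 kb (79.8 to 102.5) and lower regions at 71.1 kb (57.1 to 92.0).

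For most of these regions the host gene was not the gene with the nearest start. The nearest start in the authors' annotation belonged to the host for 528 of 1428 regions (37.0%, 34.5 to 39.5), against 58.4% (54.0 to 62.7) of first-intron regions. It was the host for 35.2% of higher and 40.2% of lower regions. Both March1 regions have a date in place of the nearest gene's symbol and were not counted as the host's. These counts can thus be slightly low. The nearest listed start lay at a median of 25.7 kb (24.0 to 27.9) from higher and 23.3 kb (20.5 to 27.8) from lower regions. All lay beyond 3 kb, where the authors' promoter class ends.

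The last intron of the annotated transcript held 204 of the 1428 regions (14.3%, 12.5 to 16.2), 124 higher and 80 lower in KO (60.8% higher, 53.7 to 67.5). Their share of the introns after the first depends on how it is taken. It was 16.6% as a mean over the 1428 regions, each with its own transcript, and 6.76% over all introns of the 1166 transcripts pooled, where transcripts with many introns weigh most. Intron lengths were unknown in both. In transcripts with at least 5 introns, last introns held 7.14% of regions and were 9.35% of introns as a mean over regions. Transcripts with 2 introns, where the second is also the last, gave 54 of the 204, of which 32 were higher and 22 lower.

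Among last introns of named genes in the higher list, the highest score given by the authors was 90.8. It lay in intron 28 of 28 of Atrnl1, the attractin-like membrane protein (chr19:58113288-58113596). Next were Spata9 (11.8, intron 4 of 4), a gene named for spermatogenesis, Vwc2 (8.21, intron 3 of 3), which encodes a secreted antagonist of bone morphogenetic proteins, Shisa9 (7.94, intron 4 of 4), an auxiliary subunit of AMPA glutamate receptors, and the Wnt5a receptor gene Ror1 (5.97, intron 8 of 8). In the lower list the highest were the bone matrix gene Mepe (12.4, intron 2 of 2), the zinc finger gene Zfp763 (10.6, intron 3 of 3), the protocadherin gene Pcdh7 (10.6, intron 2 of 2), the ribosome biogenesis gene Rrp15 (5.99, intron 4 of 4) and the muscle sarcoglycan gene Sgcd (5.57, intron 6 of 6).

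Scores were assigned to the regions by the authors. Their scale is not stated, they are no measure of how large a change was, and they serve here to rank regions within a list. The median score was 2.69 (2.52 to 2.82) for higher and 2.66 (2.47 to 2.77) for lower regions, and the 1428 regions took only 198 distinct values, the commonest of which, 1.95, was shared by 114 regions. Besides those in last introns, the highest scores among named hosts in the higher list lay in the teneurin gene Tenm2 (12.04, intron 9 of 30), a synaptic adhesion protein, in the complement gene C6 (10.7, intron 14 of 15), in the laminin gene Lama3 (9.25, intron 2 of 74), in the mitotic spindle gene Ckap2l (8.62, intron 7 of 8) and in Nell1 (8.62, intron 12 of 19), which encodes a secreted factor of bone formation. Lrriq3, Nckap5 and the sperm flagellum gene Spef2 shared 8.21 with Vwc2. A region in the predicted gene Gm36264 scored 22.9. Among later-intron regions Atrnl1 alone stood far above the rest. Scores reached 88.1 in first introns and 4950 among all listed higher regions, so its score was not extreme in the list as a whole.

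In the lower list the endosomal FYVE-domain genes Zfyve26 (11.96, intron 27 of 41) and Zfyve16 (10.3, intron 14 of 17) both ranked high. So did the ephrin receptor gene Epha7 (11.8, intron 14 of 16), the mitochondrial aspartate-glutamate carrier gene Slc25a12 (11.02, intron 2 of 17), the macrophage DNase gene Dnase1l3 (9.66, intron 5 of 7), the axon guidance receptor gene Robo1 (8.82, intron 16 of 28) and the adaptor gene Shc4 (8.43, intron 2 of 11).

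**Figure D2:**
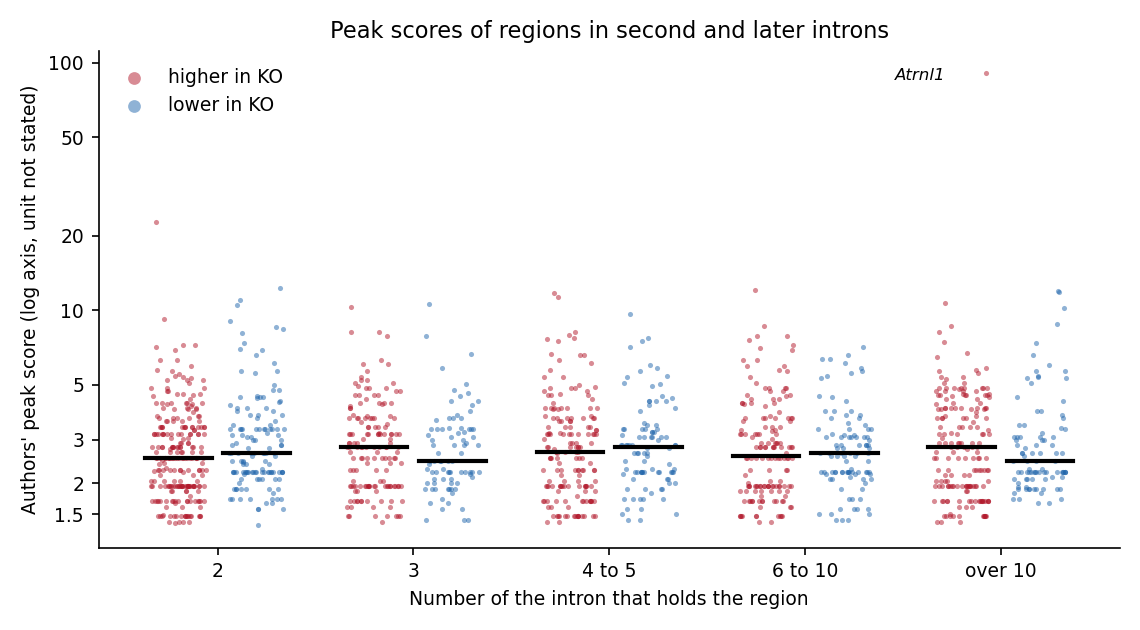
Authors' peak score of each later-intron region (y axis, log scale, unit not stated) by the number of its intron (x axis), for regions higher in KO (red points) and lower in KO (blue points). Black lines are medians, which lie between 2.47 and 2.82 in all classes, and the point at 90.8 is the last intron of Atrnl1.

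Later-intron regions sat in long genes. The host was found in RefSeq for 1365 of the 1428 regions, and 1329 of these overlapped its span. Counted per region, the median host length was 173 kb (157 to 192), with 190 kb (165 to 219) for higher and 156 kb (128 to 177) for lower ones, against 139 kb (122 to 152) for first-intron regions. With each host counted once, it was 127 kb (115 to 144) for later and 129 kb (106 to 146) for first introns. Over all 21887 protein-coding genes, whatever their number of introns, it was 17.2 kb. Of the 227 protein-coding genes over 500 kb, 153 (67.4%) held a later-intron region, against 1.17% of those under 50 kb. Beside their share of sequence the excess was smaller. Genes over 500 kb made up 18.4% of the summed length of protein-coding genes and held 23.9% of the regions placed in such genes. For genes under 50 kb these shares were 23.9% and 16.1%. Per Mb of gene, later-intron regions of both lists numbered 0.799 in genes under 50 kb and 1.54 in those over 500 kb. How much of each gene is intron was not measured.

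The share higher in KO differed between the shortest and the longest hosts. In protein-coding hosts under 50 kb, 108 regions were higher and 93 lower. The share higher was 53.7% (46.6 to 60.8), which is below the 64.2% of all listed regions. It was 63.2% (58.5 to 67.8) in hosts of 50 to 200 kb, 63.7% (58.1 to 69.0) in those of 200 to 500 kb and 69.8% (64.2 to 75.0) in those over 500 kb, with 208 higher and 90 lower. Per Mb of all protein-coding genes of the class, higher regions numbered 0.429, 0.733, 0.865 and 1.08 in order of length, and lower regions 0.370, 0.427, 0.493 and 0.467. These length classes were chosen after the lists had been seen.

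Hosts that held a single later-intron region showed the low share among short genes, 52.8% (45.6 to 59.9), but no rise above 50 kb. Their share was 62.7% in hosts of 50 to 200 kb, 64.8% in those of 200 to 500 kb and 61.8% (49.2 to 73.3) among those over 500 kb. The other regions of that longest class, in genes with several, were 166 higher and 64 lower, 72.2% higher (65.9 to 77.9), and these intervals overlap. First-intron regions had 53.1% (40.2 to 65.7) in hosts under 50 kb, then 59.1%, 65.5% and 62.5% (50.3 to 73.6) in order of length. The intervals of the shortest and the longest class overlap those of later introns. Widths and scores did not differ by length class beyond their intervals. The median width was 401 bp (364 to 431) for higher and 361 bp (334 to 405) for lower regions in hosts under 50 kb, and 396 bp (370 to 412) and 342 bp (326 to 367) in hosts over 500 kb.

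**Figure D3:**
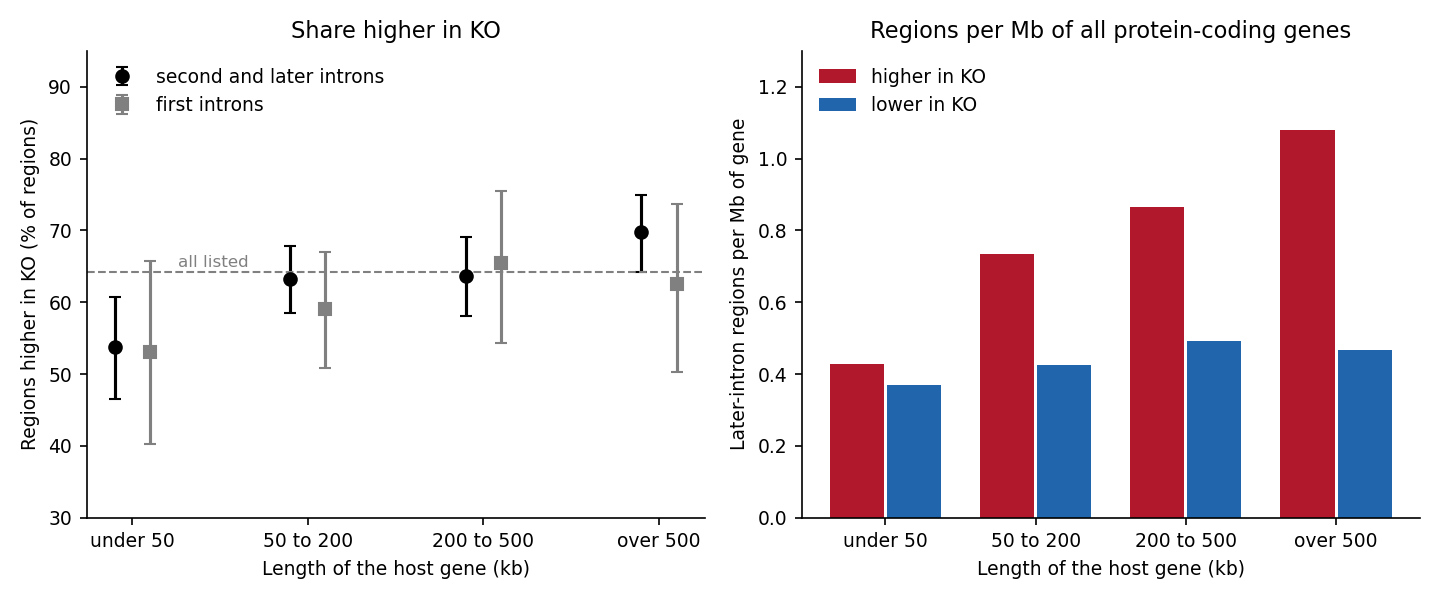
Left: share of regions higher in KO (percent, y axis) by the RefSeq length of the protein-coding host gene (kb, x axis) for later introns (black circles) and first introns (grey squares), with exact 95% binomial intervals and a dashed line at the 64.2% of all listed regions. Right: later-intron regions higher in KO (red) and lower in KO (blue) per Mb of all protein-coding genes of the class; higher regions go from 0.429 to 1.08 per Mb with host length and lower regions from 0.370 to 0.467 per Mb.

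The 1428 regions lay in 1157 host genes. A single region was found in 961 hosts, and 196 hosts held several, with 467 regions between them (32.7%). Of these 196, 107 had regions in both lists, 77 only higher and 12 only lower ones. Hosts with more regions have more room to be in both lists. How much mixing the 64.3% higher of all later-intron regions would give by itself was not computed. Hosts in both lists were 13.7% of the 782 with a higher region and 22.2% of the 482 with a lower one. Regions of hosts with several were higher in 320 and lower in 147 cases (68.5% higher), and those of hosts with one were higher in 598 and lower in 363 (62.2%). A listed first-intron region was also found in 72 hosts, which are 6.22% of the 1157 hosts and 15.7% of the 460 hosts of first-intron regions.

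At least 3 regions were held by 49 hosts, of which 41 were in both lists, 8 only in the higher and 0 only in the lower. Those with exactly 3, all higher, included Agbl1, the ankyrin gene Ank3, the T-cadherin gene Cdh13, the pyrimidine catabolism gene Dpyd, and the X-linked synaptic genes Il1rapl2 and Tenm1, named after their values were seen. At least 4 were held by 16 hosts, whose median length was 1078 kb. Together these genes had 49 higher and 25 lower regions (66.2% higher).

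**Figure D4:**
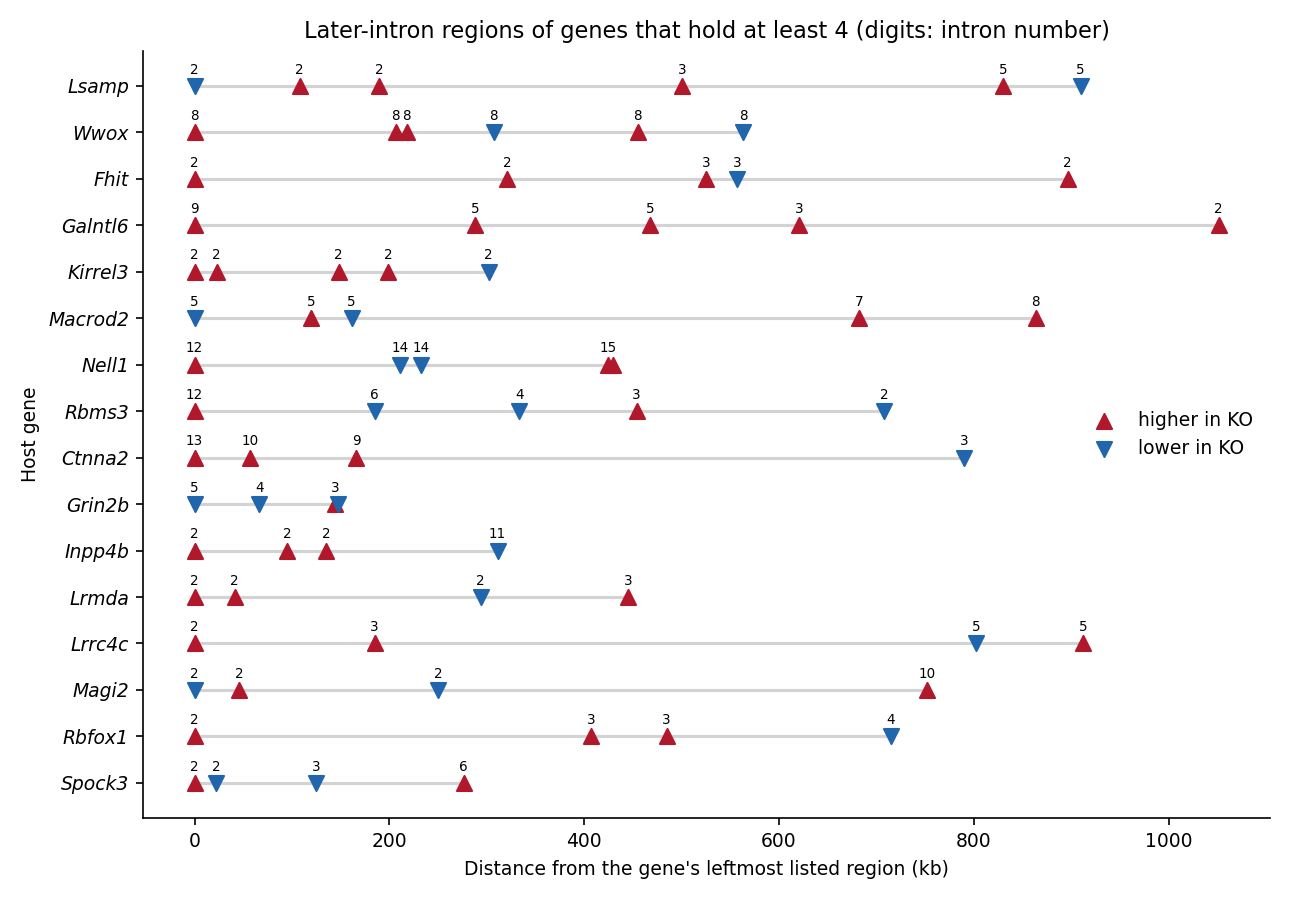
Later-intron regions of the 16 genes that hold at least 4, as distance in kb from the gene's leftmost listed region in genome order (x axis), 1 gene per row. Red upward triangles are higher in KO, blue downward triangles lower in KO, and digits are intron numbers in the annotated transcript (neighbours of the same intron within 10 kb share a digit; Fhit and Rbms3 regions were numbered in 2 transcripts each); only Galntl6 has a single direction, with 5 higher regions.

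Among these 16, Lsamp, which encodes a limbic GPI-anchored adhesion protein, had 4 higher and 2 lower regions over 910 kb, in introns 2, 3 and 5 of 8. Kirrel3, a synaptic adhesion gene, had 4 higher and 1 lower, all in intron 2 of 16. The alpha-catenin gene Ctnna2 had 3 higher regions in introns 13, 10 and 9 of 19 and 1 lower in intron 3. Lrrc4c, the netrin-G ligand, had 3 higher and 1 lower, and the synaptic scaffold gene Magi2 had 2 of each. Grin2b, a subunit of NMDA glutamate receptors, was the reverse of most, with 1 higher and 3 lower. Its higher region, chr6:135982802-135983254 with a score of 4.02, lay 1.99 kb from a lower one in the same intron, chr6:135985249-135985819 with a score of 2.22.

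Wwox and Fhit, very long genes that span common fragile sites, were in this group too. All 6 regions of Wwox, which encodes an oxidoreductase with WW domains, fell in its last intron, 8 of 8, with 4 higher and 2 lower over 564 kb and scores between 1.69 and 3.28. Fhit, a nucleotide hydrolase gene, had 4 higher regions and 1 lower, the highest score being 7.24. Macrod2, a macrodomain hydrolase gene, had 3 higher and 2 lower in introns 5, 7 and 8 of 16. The glycosyltransferase-like gene Galntl6 had 5 higher and 0 lower over 1052 kb in introns 2, 3, 5 and 9 of 12, with scores from 2.82 to 4.54.

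The RNA-binding protein genes Rbms3 and Rbfox1 had 2 higher and 3 lower regions, and 3 higher and 1 lower. In Rbms3 the scores were 5.25 and 1.95 for the higher regions and 2.22, 1.90 and 1.73 for the lower ones. Nell1 had 3 higher and 2 lower, ordered along the gene as a higher region in intron 12, both lower regions in intron 14 and the other higher ones in intron 15 of 19. The phosphoinositide phosphatase gene Inpp4b had 3 higher regions in intron 2 and 1 lower in intron 11 of 24. Lrmda, linked to melanocyte differentiation, had 3 higher and 1 lower, and the matrix proteoglycan gene Spock3 had 2 of each. The directions were mixed in 15 of the 16. How many mixed genes the 64.3% higher among all later-intron regions would give by itself was not computed.

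The directions of neighbouring regions of a host were compared. Of 271 pairs of neighbours in the same host, 142 had the same direction (52.4%) and 129 opposite directions, at a median gap of 104 kb. The share that the split of the lists would give by itself, with 64.3% of later-intron regions higher, was not computed. The 52.4% therefore cannot be read as agreement or disagreement of neighbours. Pairs within the same intron numbered 82, with 44 of the same direction. Within 10 kb there were 22 pairs, 10 of the same and 12 of opposite direction. The closest pairs, named after their values were seen, lay in single introns. In Csmd1, a gene of the complement-control domain family, a higher and a lower region of intron 3 of 69 were 0.657 kb apart. Both Nxph1 regions, 0.727 kb apart in intron 2 of 2, were lower, and those of Dpp10, 0.895 kb apart in intron 5 of 25, were both higher.

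Groups of genes with related roles are described next. They were written with earlier results of these data known, and their counts are descriptions beside the 64.2% higher of all listed regions and the 4.55% of all protein-coding genes, 996 of 21887, that were hosts. The groups differ in gene length, which went with being a host, and no test was made. Hosts were 1.17% of protein-coding genes under 50 kb and 10.1% of those of 50 to 200 kb. They were 31.8% of those of 200 to 500 kb and 67.4% of those over 500 kb. A group's share is to be read beside the share for genes of its length. Of 78 cell and synaptic adhesion genes, with a median length of 729 kb, 45 were hosts (57.7%), with 67 higher and 34 lower regions (66.3% higher, 56.2 to 75.4), and 18 of the 45 were in both lists. Examples were Tenm2 (12.04, higher), Robo1 (8.82, lower), Il1rapl2 (5.54, higher) and Sdk2 (5.43, lower). Of 82 ion channel and neurotransmitter receptor genes (median length 334 kb), 27 were hosts (32.9%), with 28 higher and 16 lower regions (63.6%, 47.8 to 77.6). The highest scores there were in the higher list, in the glutamate receptor genes Grik2 (7.86), Grid1 (4.86) and Grik1 (4.59) and the inositol trisphosphate receptor gene Itpr2 (5.73). RNA-binding and splicing regulators (155 kb) had 8 hosts of 32 genes (25.0%), with 10 higher and 7 lower regions, led by Rbms3 (5.25, higher), Rbfox1 (4.40, higher), Celf4 (3.76, higher) and Rbfox3 (3.61, lower).

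Collagen, laminin and matrix protease genes, with a median length of 152 kb, had 14 hosts of 55 (25.5%), with 11 higher and 5 lower regions, among them Lama3 (9.25) and Col13a1 (4.54) in the higher list and Adamts12 and Adamts2 (5.32 each) in the lower. Dynein, kinesin and myosin genes (192 kb) had 15 hosts of 44 (34.1%), with 10 higher and 6 lower regions, the highest being Kif6 (5.08), Myo5a (4.86), Dnah6 (4.54) and Dnah9 (3.39), all higher. Phosphodiesterase and adenylyl cyclase genes (123 kb) had 8 hosts of 29 (27.6%), with 7 higher and 2 lower, among them Adcy2 (5.25) and Pde7b (2.52) in the higher and Pde10a (2.22) and Pde6b (1.90) in the lower list.

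Wnt pathway genes, with a median length of 98.1 kb, had 7 hosts of 36 (19.4%), with 7 higher regions and 1 lower (87.5%, 47.3 to 99.7). The higher ones included Ror1 (5.97), the transcription factor gene Tcf7l2, with a pair of regions in intron 4 of 12 (3.57 each), and Daam2 (2.52), and the lower one was in the kinase gene Tnik (5.38). Chromatin regulators (77.3 kb) had 6 hosts of 75 (8.00%), with 5 higher regions and 2 lower. They were led by the H3K9 demethylase gene Kdm3b (4.72, higher) and by Setd5 (4.52, higher), ahead of Prdm16 (3.80, lower, and 1.95, higher) and Arid1b (2.52, higher), the paralogue of Arid1a.

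Few genes that mark cell types were hosts, at most 2 per group. Their shares lay near the 4.55% of all protein-coding genes but above the 1.17% of those under 50 kb, the class of the groups' median lengths. Counts of 1 or 2 hosts are too small to compare with either share. Of 40 homeostatic and pan-microglia genes, with a median length of 25.2 kb, 2 were hosts (5.00%), each with 1 higher region and none lower. One of them was Dock2 (1.48, intron 22 of 51, chr11:34520853-34521250), which encodes an activator of Rac in blood cells. Of 30 neural progenitor and neuron genes (33.3 kb), 2 were hosts (6.67%), with 2 lower regions in Rbfox3 (3.61 and 3.36) and 1 higher in Gad2 (1.69). Of 25 genes grouped as endothelial, mural and erythroid (35.9 kb), 1 was a host (4.00%). It was Dcn, with a higher region of score 5.70, which encodes the matrix proteoglycan decorin and is not specific to those cells. The lists carry no level of any gene, so how far other cells entered the sorted samples could not be measured.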

How the data were processed

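H3K9me3 and IgG CUT&Tag libraries were made from 100000 sorted cells and amplified over 14 PCR cycles, per the labels' protocols, in 4 groups with 1 library in each. FastQC, Bowtie2 2, CASAVA 1.4 and the genome build mm9 are named, in no stated order or role, in the submitters' processing notes. Neither the labels nor the file headers state a peak caller, a rule of listing, an annotation tool or how the IgG libraries were used. Per the file headers, the authors' deposited lists give for each region a position, a width, a peak score, an annotation, the nearest start and the distance to it. The lists hold no count, so the depth of the libraries is unknown, and unequal depth can by itself change the length of a list.

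Rows annotated as an intron numbered 2 or more were kept, and the symbol after the slash was the host gene. Hosts were matched to a RefSeq table of GRCm38.p6 by symbol (1348 regions) or synonym (17), and 63 regions had no match. Of the matched regions, 97.4% overlapped the gene, so coordinates were read as that assembly although the notes name mm9. Intron numbers belong to the transcript the authors' annotation chose and followed the strand of the gene. The strand in the lists and in RefSeq was equal for 521 of 521 regions that had both. Gene length is the whole RefSeq span. The transcript in the lists can reach beyond it, and 36 matched regions lay outside.

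Shares have exact Clopper-Pearson intervals and medians order-statistic intervals at the 95% level. The tools were scipy 1.17.1, pandas 2.3.3, numpy 2.4.6 and matplotlib 3.10.9 under Python 3.11.15. The reading of annotations, the intervals of shares and the merging of regions were tested on made-up inputs. Named genes were hosts of the 10 highest-scoring regions of each list (11 named in the higher list because of a tie), hosts with at least 4 regions, the 5 highest-scoring last introns and 3 highest intron numbers of each list, and up to 4 genes by score of each gene list described. Some items that this rule selects are not reported here. Predicted genes and RIKEN clones were replaced by the next named gene. Slc7a11, Gm12649, Gm36264, March1 and the genes so described were added after their values were seen. The regions and lists were chosen with earlier results of these data known. The alternatives tried were autosomes, merging within 10 kb, a score at least 1 above the list's smallest, named hosts, intron 3 or later, each host once, transcripts with at least 5 introns and other measures of position.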

Additional observations from a re-analysis of the deposited data

How the results depend on the processing

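The share of later-intron regions higher in KO stayed between 63.3% and 64.7% in all 6 alternatives. The share in hosts under 50 kb stayed between 53.3% and 54.6%, and that in hosts over 500 kb between 69.1% and 70.8%, in 3 alternatives added after the data were seen. Those 3 did not include the split by regions per host. Hosts with a single region gave 52.8% under 50 kb and 61.8% over 500 kb. Hosts with several gave 4 of 4 regions higher and 72.2%. The share in last introns was 10.7% in named hosts and 7.14% in transcripts with at least 5 introns, and the other 5 alternatives left it close to 14.3%. The median relative position, 0.50, became 0.429 as (N-1)/(M-1), 0.590 as distance along the gene, 0.60 from intron 3 on, 0.444 in named hosts and 0.417 in transcripts with at least 5 introns. The number of hosts with several regions, 196, was 122 from intron 3 on and 87 for scores at least 1 above the smallest of their list, because fewer regions remained. No paired analysis was possible because each group had 1 library and the lists give no value per library. Leaving out a replicate was not possible for the same reason. How the authors chose listed regions, and its dependence on depth, could not be varied.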

Other observations

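Predicted genes and RIKEN clones, many of them noncoding, were hosts of 187 later-intron regions. Such hosts took 14.4% of higher regions (12.2 to 16.8) and 10.8% of lower regions (8.23 to 13.8), with intervals that overlap. By RefSeq class, 1248 regions lay in protein-coding and 110 in long noncoding RNA genes.

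Among autosomes the share of later-intron regions higher in KO ranged from 58.5% on chromosome 5, with 48 higher and 34 lower regions, to 76.8% on chromosome 13, with 53 higher and 16 lower. Over all autosomes it was 64.0% (61.4 to 66.5). Higher regions were wider than lower ones, with medians of 398 bp (390 to 407) and 354 bp (345 to 367). The same was true of all listed regions, at 404 bp and 357 bp, and of first introns, at 396 bp and 363 bp. The 3 regions of Fgfr2, a fibroblast growth factor receptor gene named after its values were seen, were annotated to intron 2 of 6 of a transcript that reached far beyond the 104 kb of the RefSeq gene, with 2 higher and 1 lower.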
